A study of Mus musculus with 4 samples.

Results

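The data describe 10 carboxylesterase genes of the mouse liver after an overdose of acetaminophen (APAP). These are Ces1c, Ces1d, Ces1e, Ces1f, Ces1g, Ces2a, Ces2c, Ces2e, Ces3a and Ces3b, chosen by gene symbol among the 27027 entries of a table of read counts. The table lists 19 entries of the Ces family, so that 9 of them are not among the 10. Male C57BL/6J mice aged 9 to 12 weeks were fasted for 10 h and then received either 0.9% NaCl intraperitoneally (control) or APAP at 300 mg/kg in the same vehicle. Livers were taken after 24 h or 48 h. The labels give the strain and no mutant allele. RNA of all mice of a group was mixed in equal shares, 6 mice in each control pool and 7 in each APAP pool, and each pool gave 1 library. The comparison asks how the mRNA of these enzymes stood against vehicle while the liver injury was being resolved.

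Carboxylesterases are serine hydrolases that cut ester, thioester and amide bonds. In hepatocytes most of them lie in the lumen of the endoplasmic reticulum, where they open ester prodrugs and other foreign esters and also cut triacylglycerol and cholesteryl ester during lipoprotein assembly. In the mouse the genes were multiplied in tandem, so that several Ces1 and Ces2 genes stand for a single human gene each. APAP itself is not an ester. It is turned into a reactive quinone imine by cytochromes P450 such as Cyp2e1, and the injury starts in the hepatocytes around the central vein.

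All 10 genes lay on chromosome 8 of the mouse genome (GRCm38), in 2 clusters 11.4 Mb apart. The Ces1 cluster spanned chr8:93020214-93379725 over 360 kb, with 8 genes on the minus strand in the order Ces1a, Ces1b, Ces1c, Ces1d, Ces1e, Ces1f, Ces1g and Ces1h. The other cluster spanned chr8:104734003-105150109 over 416 kb, with 11 genes on the plus strand, among them Ces2a, Ces2c, Ces2e, Ces3a and Ces3b. Ces1c had 13 exons and the other Ces1 genes described here had 14. Ces2a, Ces2c and Ces2e had 12 exons, and Ces3a and Ces3b had 13. Reads of the method used (massive analysis of cDNA ends, MACE) come from the 3′ ends of polyadenylated mRNA, so that they fall mostly in the last exon, and counts were not divided by transcript length.

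Because the genes are copies of each other, their 3′ ends were compared first. The last 300 bases of Ces3a matched Ces3b with 96.0% identity over 300 bases. The pseudogene Ces2d-ps matched Ces2c with 100% identity over 181 bases. No such match was found in the other direction, from the ends of Ces3b and Ces2c. Reads of these pairs could have been exchanged in mapping, so the single values of Ces3a, Ces3b and Ces2c are uncertain to that extent. No other pair among the 10 genes reached 95% identity over at least 100 bases. Below that limit, Ces1c matched Ces1b at 92.6% over 309 bases, and Ces2d-ps matched Ces2e at 92.6% over 242 bases.

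RefSeq (GRCm38.p6) gave the promoter, taken as 250 bases before and 50 bases from the start site on, for 7 of the 10 genes. Those of 5 are shown because they stand for the patterns described further on. Ces1c kept most of its reads after APAP and Ces1g did not. Ces2a and Ces2c had the highest and the lowest fold of the Ces2 genes at both time points, and Ces3b is the Ces3 gene with a promoter in the table. Capitals mark the letters of the motifs named after the sequences, and the sequences read 5′ to 3′ along the gene's strand.
Ces1c, promoter, chr8:93131234-93131533, minus strand: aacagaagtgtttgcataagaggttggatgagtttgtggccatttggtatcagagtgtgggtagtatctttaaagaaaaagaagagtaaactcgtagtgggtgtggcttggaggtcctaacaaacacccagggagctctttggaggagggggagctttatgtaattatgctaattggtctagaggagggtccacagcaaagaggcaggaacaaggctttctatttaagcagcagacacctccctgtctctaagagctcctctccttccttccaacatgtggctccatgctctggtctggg
Ces1g, promoter, chr8:93337160-93337459, minus strand: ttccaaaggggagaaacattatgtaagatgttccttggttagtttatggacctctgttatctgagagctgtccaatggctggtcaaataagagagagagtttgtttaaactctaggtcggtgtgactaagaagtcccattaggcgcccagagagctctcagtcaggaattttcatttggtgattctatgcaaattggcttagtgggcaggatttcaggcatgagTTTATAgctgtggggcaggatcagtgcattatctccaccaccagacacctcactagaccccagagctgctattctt
Ces2a, promoter, chr8:104733753-104734052, plus strand: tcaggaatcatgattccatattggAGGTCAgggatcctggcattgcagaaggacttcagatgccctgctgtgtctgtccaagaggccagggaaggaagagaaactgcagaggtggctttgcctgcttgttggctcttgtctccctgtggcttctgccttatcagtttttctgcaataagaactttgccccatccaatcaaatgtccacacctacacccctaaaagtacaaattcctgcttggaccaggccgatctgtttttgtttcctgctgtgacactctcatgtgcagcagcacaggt
Ces2c, promoter, chr8:104846818-104847117, plus strand: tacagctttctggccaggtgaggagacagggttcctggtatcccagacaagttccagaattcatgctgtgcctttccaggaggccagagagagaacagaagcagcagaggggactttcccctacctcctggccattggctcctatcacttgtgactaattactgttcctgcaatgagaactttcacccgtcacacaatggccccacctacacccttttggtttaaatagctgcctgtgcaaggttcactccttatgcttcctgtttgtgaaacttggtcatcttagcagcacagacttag
Ces3b, promoter, chr8:105083505-105083804, plus strand: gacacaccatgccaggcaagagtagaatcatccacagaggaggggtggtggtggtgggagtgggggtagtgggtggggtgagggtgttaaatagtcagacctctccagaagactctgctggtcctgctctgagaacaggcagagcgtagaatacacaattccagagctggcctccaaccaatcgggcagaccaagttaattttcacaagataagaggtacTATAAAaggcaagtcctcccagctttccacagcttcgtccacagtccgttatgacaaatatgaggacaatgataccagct

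A set of 4 motifs was searched on both strands, without regard to overlap. TATAAA, the letters of the TATA box, was found in 2 of the 7 promoters. In Ces1g it lay 26 bases before the start site on the opposite strand, and in Ces3b 30 bases before it. Of all 32851 promoters of this length, 13.6% held these letters anywhere in the window on either strand. That share is not a rate for a TATA box at these places. AGGTCA, the core that many nuclear receptors bind, was found in 1 of the 7, Ces2a, 226 bases before the start site, against 16.3% of all. Of the 7 promoters, 0 held CAAAGTCCA, a site of Hnf4a, and 0 held TGACNNNGC, the core of the antioxidant response element, against 0.475% and 12.4% of all. In a global alignment, Ces2a and Ces2c shared 67.0% of their promoter bases, Ces2a and Ces2e 61.3%, Ces2c and Ces2e 59.0%, and Ces1c and Ces1g 58.3%. The other pairs shared 48.0% to 54.3%, with Ces1c and Ces1e at 49.7% and Ces1e and Ces1g at 52.0%. The Ces1e window seems to be offset from those of Ces1c and Ces1g. Near its end it holds the letters taaactc and, further on, gagctc. In Ces1c and Ces1g the same letters occur in this order well before the end of the window. The low values of Ces1e with these genes thus do not show that their upstream sequences differ, and shifted windows were not tested. A match of letters is a description of these windows.

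The 4 libraries held 4859661 to 5698778 reads on genes, and 19637 to 20641 genes had at least 1 read. Levels were put on a common scale by DESeq2 size factors, and a fold is the ratio of APAP to its time-matched control pool, so that a fold under 1 is a lower level after APAP. Folds are given with 95% exact intervals (Clopper-Pearson) in brackets, for counting error alone. A single library stood for each group, so that no replicate check and no test was possible at a single time point. Library totals in place of size factors moved the median log2 fold of all genes by 0.19 at 24 h and by 0.27 at 48 h.

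Hepatocyte markers were at high levels in all libraries. The summed level of 9 hepatocyte markers (Alb, Apoa1, Apob, Ttr and others) was 86064 and 86565 RPM (reads scaled to the library total) in the 24 h and 48 h controls against 94999 and 108600 RPM after APAP. Their summed fold was 0.970 at 24 h and 1.04 at 48 h. Alb alone gave 208729 of their 418240 reads in the 24 h control pool. Single markers went apart at 24 h, with a fold of 0.561 for Ttr and 2.70 for Fgb. Markers that hepatocytes around the central vein carry (12 genes, such as Glul and Cyp2e1) summed to 3687 and 4023 RPM in the 24 h and 48 h controls against 1820 and 1449 RPM after APAP, a fold of 0.434 and 0.300. Neutrophil markers went from 2.68 and 3.08 RPM to 40.7 and 32.4 RPM. The sum of the macrophage and monocyte markers went from 139 and 140 RPM to 187 and 347 RPM. This sum hides a spread at 24 h. Of the 7 genes averaging at least 10 normalized reads, 2 were then at least 2-fold higher and 0 at least 2-fold lower. The 24 h fold was 3.42 (2.70 to 4.39) for Lyz2, 0.995 for the median gene Csf1r and 0.534 (0.441 to 0.645) for Clec4f. In RNA of whole liver, fewer cells of a type and less RNA per cell cannot be told apart, and the part of these shifts in the folds of the carboxylesterases was not tested.

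All 10 carboxylesterases had fewer normalized reads after APAP than in their time-matched control pools, at 24 h and at 48 h. At 24 h, 5 of 10 were at least 2-fold lower, namely Ces1d, Ces1e, Ces1f, Ces1g and Ces2c, against 5.68% of the 12113 genes that averaged at least 10 normalized reads. The interval of Ces2c (0.277 to 0.611) reached past the threshold, so that 4 of 10 had a whole interval under it. At 48 h, 9 of 10 were at least 2-fold lower, all but Ces1c, against 5.61% of those genes. None of the 10 was at least 2-fold higher, against 5.85% of genes at 24 h and 5.76% at 48 h. The median log2 fold of the 10 genes was -1.12 at 24 h and -2.04 at 48 h, beside 0.01 and -0.02 over all genes. At the 5-fold threshold, 0 of 10 were lower at 24 h and 1 of 10, Ces2c, at 48 h, against 0.636% and 0.768% of all genes.

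The summed level of the 10 genes was 3324 RPM in the 24 h control pool, 3764 RPM in the 48 h control pool, 2109 RPM in the 24 h APAP pool and 1837 RPM in the 48 h APAP pool. Both APAP pools lay under both control pools. On normalized reads the summed fold at 24 h was 0.557 (0.544 to 0.571), and that at 48 h was 0.406 (0.396 to 0.416). Of all reads on genes, the 10 genes made up 0.332% and 0.376% in the controls, against 0.211% and 0.184% after APAP.

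**Figure D1:**
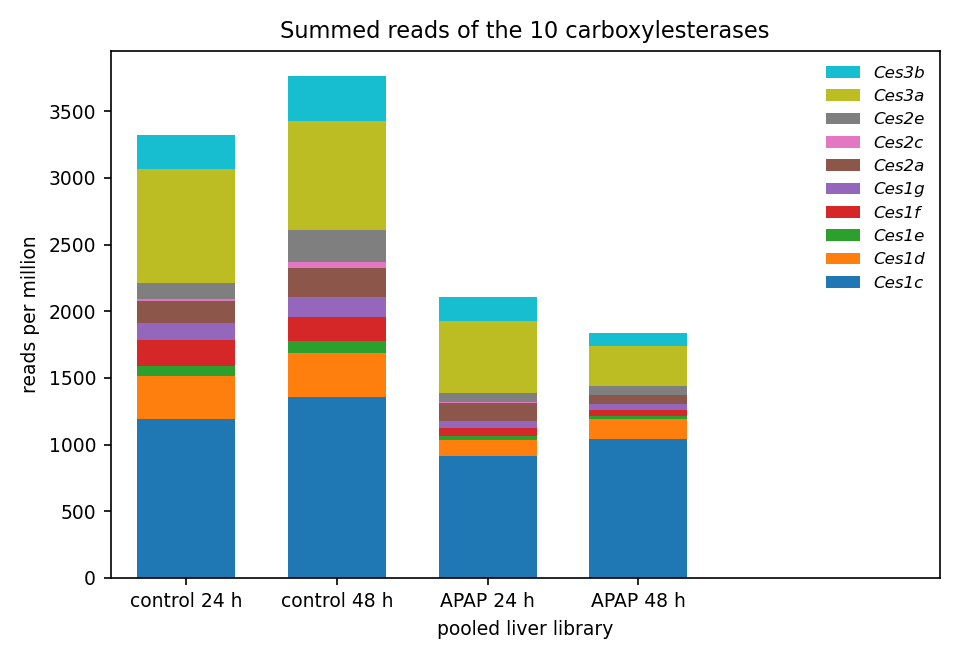
Stacked bars of RPM (linear axis from 0) of the 10 carboxylesterases in each of the 4 pooled liver libraries, with 1 library per bar and no error bar. The stacks reach 3324 and 3764 RPM in the 24 h and 48 h controls against 2109 and 1837 RPM after APAP, and Ces1c at the foot is the tallest segment of each stack.

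Ces1c and Ces3a carried most of these reads. Ces1c, which codes for an esterase secreted into mouse plasma, took 35.7% and 36.0% of the reads of the 10 genes in the control pools, 43.3% in the 24 h APAP pool and 56.7% in that at 48 h. Ces3a took 25.6% and 21.8% in the controls, against 25.4% and 16.3% after APAP. The 5 Ces1 genes together made up 56.0% of these reads in the 48 h control pool and 71.2% in the 48 h APAP pool, and the 2 Ces3 genes 30.7% and 21.4%. Without Ces1c, the summed fold of the other 9 genes was 0.492 at 24 h and 0.274 at 48 h.

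**Figure D2:**
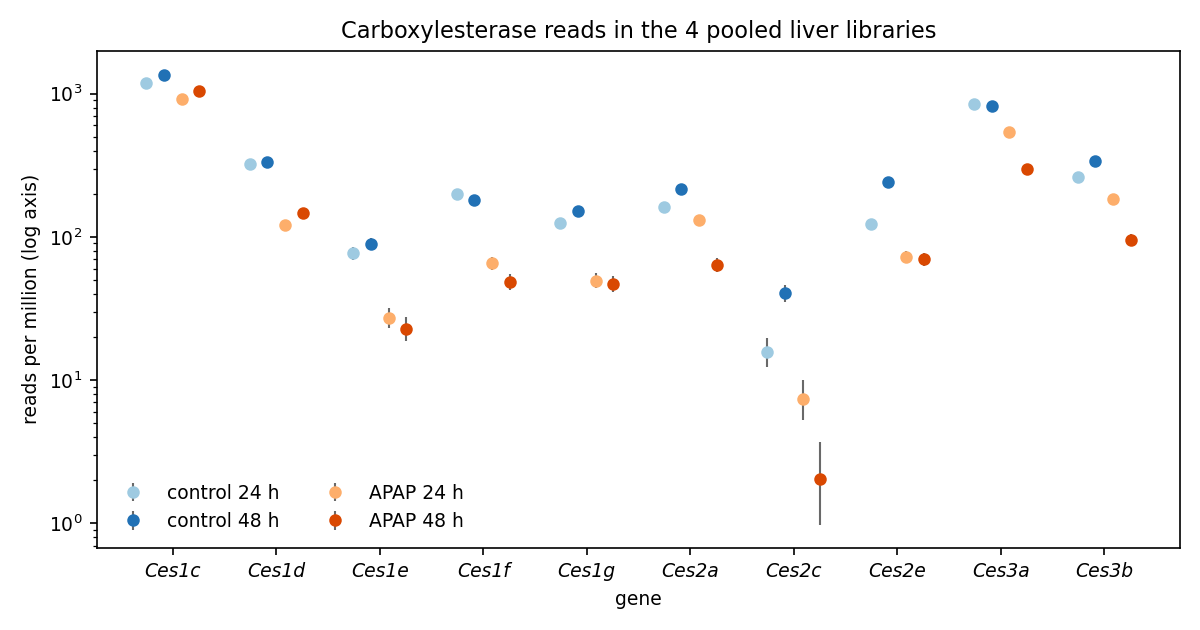
RPM (log axis) of each of the 10 genes in the 4 pooled libraries, 1 point per library, with 95% exact counting intervals as bars where these exceed the point. Each gene's APAP points lie under its control points, from Ces1c (913 to 1354 RPM) down to Ces2c (2.03 to 40.6 RPM).

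Ces1c was the gene with the smallest change at 48 h. Its level was 1188 RPM in the 24 h control pool, 1354 RPM in the 48 h control pool, 913 RPM in the 24 h APAP pool and 1042 RPM in the 48 h APAP pool. The APAP pools were lower than the control pools by less than the 2-fold threshold. The 24 h fold was 0.675 (0.650 to 0.701) and the 48 h fold 0.640 (0.618 to 0.664). Its neighbour Ces1b, which is not among the 10, had similar folds, 0.635 (0.561 to 0.719) and 0.722 (0.645 to 0.808). The 3′ ends of both genes share 92.6% of their bases, and an exchange of reads between them was not tested.

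The 4 genes that follow Ces1c in the cluster, Ces1d, Ces1e, Ces1f and Ces1g, were the ones already lowest at 24 h. Ces1d, also known as triacylglycerol hydrolase, mobilizes stored triacylglycerol for very-low-density lipoprotein. It was at 325 and 334 RPM in the 24 h and 48 h controls against 121 and 147 RPM after APAP. Its 24 h fold was 0.328 (0.299 to 0.359) and its 48 h fold 0.367 (0.336 to 0.400). Ces1d was the one gene of the 10 with no lower fold at 48 h.

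Ces1e, the egasyn that holds beta-glucuronidase in the endoplasmic reticulum, had 373 reads in the 24 h control pool, 466 in the 48 h control pool, 155 in the 24 h APAP pool and 113 in the 48 h APAP pool. Its fold was 0.311 (0.256 to 0.376) and 0.212 (0.171 to 0.261). Ces1f, a lipid hydrolase close to Ces1d, had 961, 943, 373 and 239 reads in the same order of libraries, a fold of 0.291 (0.257 to 0.328) and 0.222 (0.191 to 0.256). In both genes the APAP pools lay far under both control pools, which differed little. Ces1g, an esterase tied to hepatic lipid and lipoprotein levels, had 610, 782, 282 and 233 reads, a fold of 0.346 (0.300 to 0.400) and 0.261 (0.224 to 0.302).

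Summed, Ces1d to Ces1g were at 0.319 of the control level at 24 h and at 0.292 at 48 h. Most of their change was thus in place at 24 h. The groupings Ces1d to Ces1g and Ces2 with Ces3 were chosen after the values had been seen. The sum of the 5 Ces2 and Ces3 genes was at 0.580 of control at 24 h and at 0.266 at 48 h.

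**Figure D3:**
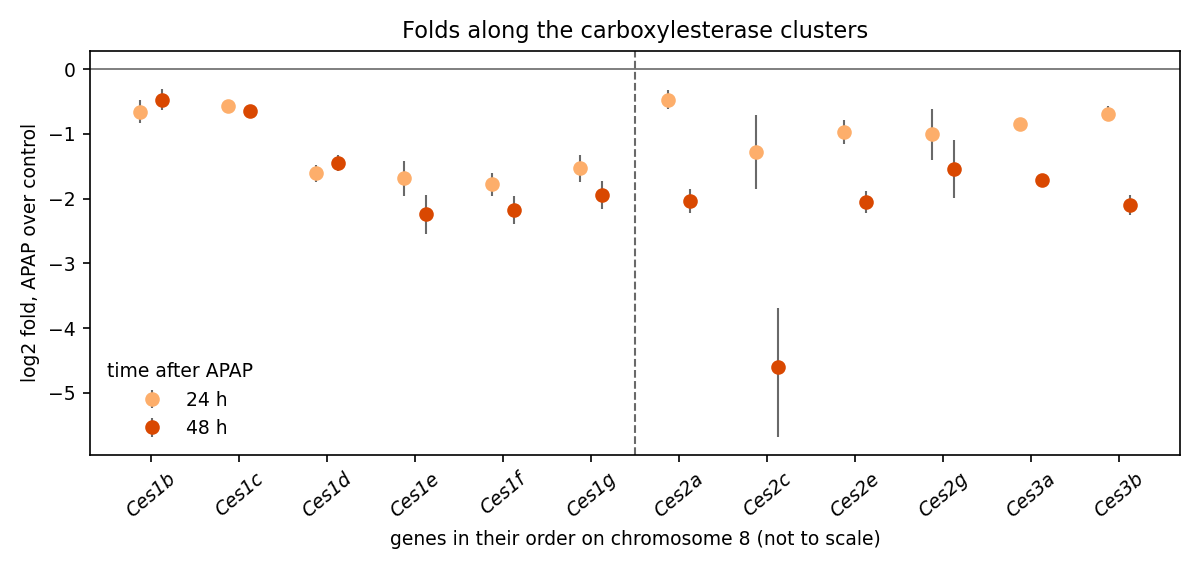
Log2 fold of APAP over control at 24 h (light) and 48 h (dark) for the Ces genes that averaged at least 10 normalized reads and had over 3 reads in each library, in their order on the chromosome (not to scale), the dashed line parting the clusters and bars being 95% exact counting intervals. Ces1b and Ces1c lie nearest to 0 at 48 h, Ces1d to Ces1g are low at both time points, and the Ces2 and Ces3 genes have lower folds at 48 h than at 24 h. For Ces2g the interval of the ratio of both folds held 1 (0.459 to 1.05).

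The 3 Ces2 genes each had a lower fold at 48 h than at 24 h. Ces2a, an acylglycerol hydrolase of hepatocytes, was at 161 RPM in the 24 h control pool, 216 RPM in the 48 h control pool, 132 RPM in the 24 h APAP pool and 63.4 RPM in the 48 h APAP pool. The 24 h APAP pool lay under its control by less than the 2-fold threshold, and the 48 h APAP pool lay far under its control. The 24 h fold was 0.720 (0.650 to 0.796) and the 48 h fold 0.244 (0.215 to 0.277). The control level was 1.35 times as high (1.23 to 1.48) at 48 h as at 24 h. Against the other control pool, the folds were 0.532 (0.485 to 0.584) at 24 h and 0.330 (0.289 to 0.377) at 48 h.

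Ces2c, a relative of Ces2a that the intestine also carries, had 76 reads in the 24 h control pool, 211 in the 48 h control pool, 42 in the 24 h APAP pool and 10 in the 48 h APAP pool. Its 24 h fold was 0.414 (0.277 to 0.611) and its 48 h fold 0.0414 (0.0196 to 0.0777), the lowest of the 10 genes. The control pools also differed, since the normalized level was 2.62 times as high at 48 h as at 24 h (2.01 to 3.45). It was the one gene of the 10 whose control pools were at least 2-fold apart, against 5.20% of all genes. Against the 24 h control pool, the 48 h APAP pool was at 9.38 normalized reads beside 86.4, a fold of 0.109 (0.050 to 0.211), and against the 48 h control pool the fold of the 24 h APAP pool was 0.158 (0.111 to 0.221). Ces2d-ps, whose 3′ end matches Ces2c, had 13, 42, 7 and 2 reads in the same order.

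Ces2e, another Ces2 gene of liver and intestine, was at 124 and 241 RPM in the 24 h and 48 h controls against 72.1 and 69.9 RPM after APAP. The 24 h fold was 0.511 (0.449 to 0.580) and the 48 h fold 0.241 (0.214 to 0.272). Its APAP pools thus stood at like levels, and the lower fold at 48 h came with a control level 1.96 times as high (1.77 to 2.16) as at 24 h. With the control pools swapped, the 24 h fold was 0.261 (0.233 to 0.292) and the 48 h fold 0.472 (0.412 to 0.540).

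Ces3a and Ces3b, carboxylesterases found mainly in mouse liver, could have exchanged reads in mapping, which was not tested. Ces3a was at 850 and 821 RPM in the 24 h and 48 h controls against 536 and 300 RPM after APAP. Its fold was 0.555 (0.529 to 0.581) and 0.304 (0.286 to 0.322). Ces3b was at 261 and 337 RPM in the 24 h and 48 h controls against 185 and 94.6 RPM after APAP, a fold of 0.621 (0.572 to 0.675) and 0.234 (0.210 to 0.259). The sum of both genes, which an exchange between them leaves as it is, was at 0.570 of control at 24 h and at 0.283 at 48 h.

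**Figure D4:**
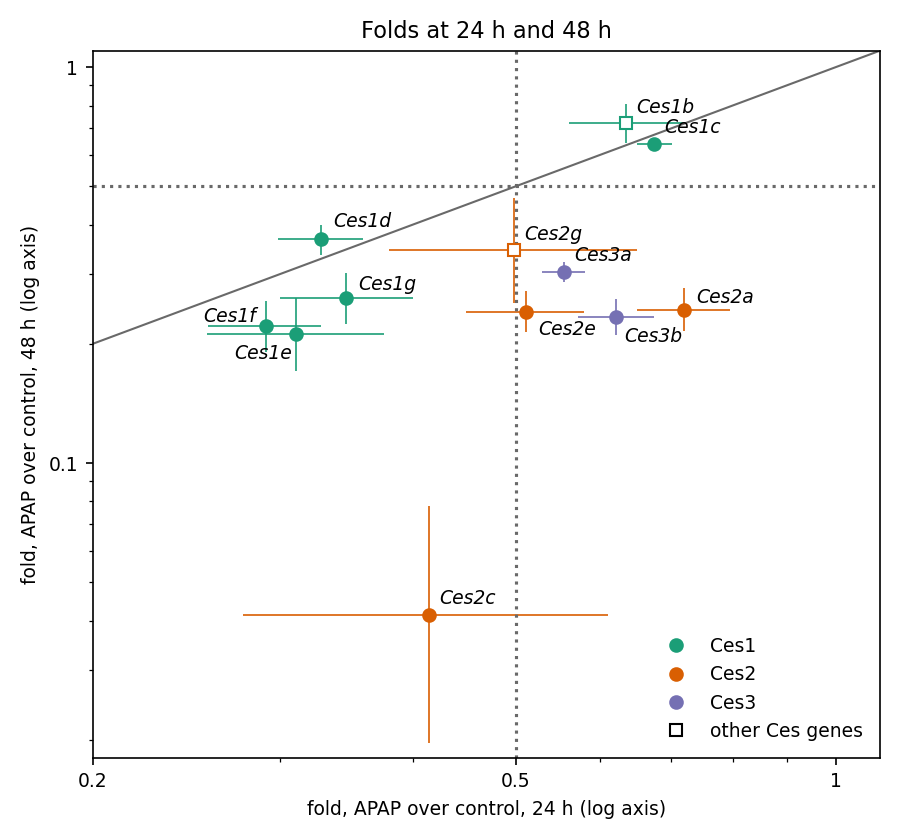
Fold of APAP over control at 24 h (horizontal, log axis) against 48 h (vertical, log axis) for the 10 genes (filled) and for Ces1b and Ces2g (open squares), with 95% exact counting intervals, equal folds on the grey diagonal and 2-fold lower levels on the dotted lines. Ces1d lies just above the diagonal and the other 9 filled points under it, Ces2c farthest with 0.414 and 0.0414.

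The folds at both time points were then set against each other. The ratio of the 48 h fold to the 24 h fold had a 95% conditional exact interval under 1 in 9 of 10 genes, all but Ces1d, against 11.0% of 12107 genes. None of the 10 had an interval over 1, against 8.85% of genes. The interval covers counting error alone and is narrower for genes with more reads. Of the 9 hepatocyte markers, it lay under 1 in 2 and over 1 in 6. Of the 11 pericentral markers with enough reads, it lay under 1 in 6 and over 1 in 1. Of the 12 periportal markers, it lay under 1 in 2 and over 1 in 8. The ratio was 0.100 (0.0430 to 0.217) for Ces2c, 0.339 (0.288 to 0.400) for Ces2a, 0.376 (0.329 to 0.430) for Ces3b, 0.473 (0.396 to 0.564) for Ces2e and 0.547 (0.507 to 0.591) for Ces3a. For the Ces1 genes it was nearer to 1, at 0.681 (0.510 to 0.908) for Ces1e, 0.752 (0.611 to 0.927) for Ces1g, 0.762 (0.630 to 0.921) for Ces1f, 0.948 (0.900 to 0.999) for Ces1c and 1.12 (0.986 to 1.27) for Ces1d. With both control pools summed as the control of both time points, 5 of 10 genes had an interval under 1 (Ces1f, Ces2a, Ces2c, Ces3a and Ces3b), and Ces1c and Ces1d had an interval over 1. The ratio was then 0.262 (0.117 to 0.531) for Ces2c and 0.924 (0.798 to 1.07) for Ces2e, and the intervals of Ces1e, Ces1g and Ces2e held 1. With library totals as the scale, the interval of Ces1d lay over 1 (1.04 to 1.34) and that of Ces1c held 1 (0.951 to 1.06). These intervals compare libraries, not mice.

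Over both time points, treatment was tested across all genes with edgeR's quasi-likelihood test, in a fit of time point and treatment that takes the time points as the 2 pools of each arm and has 1 residual degree of freedom. All 10 genes were lower at a Benjamini-Hochberg adjusted p under 0.05, against 7.93% of the 12339 genes tested, and 0 were higher, against 4.54%. In the edgeR test Ces1f had a log2 fold of -1.98 (SE 0.18, adjusted p = 1.6e-11) and Ces1e of -1.96 (SE 0.19, adjusted p = 8.5e-11). Ces1g stood at -1.74 (SE 0.18) and Ces1d at -1.53 (SE 0.17), with edgeR adjusted p = 4.7e-10 and 4.3e-09. Ces2c had the largest change, -2.66, with the widest error (SE 0.34, edgeR adjusted p = 1.0e-07). Ces2e at -1.52 (SE 0.19, adjusted p = 1.0e-07), Ces3b at -1.39 (SE 0.21, adjusted p = 2.4e-06), Ces3a at -1.29 (SE 0.19, adjusted p = 2.9e-06) and Ces2a at -1.24 (SE 0.21, adjusted p = 3.0e-05) followed in edgeR. Ces1c was the least changed at -0.61 (SE 0.18, edgeR adjusted p = 0.020). With 1 residual degree of freedom these p-values lean on a spread shared across genes, and they measure no spread between mice. Their size depended on the setting. For Ces1f the edgeR adjusted p was 4.4e-07 with DESeq2 size factors and 5.0e-04 with treatment alone in the fit.

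The calls rested in part on single libraries. With treatment alone in the fit, 8 of 10 genes passed in edgeR, without Ces1c and Ces2a. That fit called 537 of 12339 genes lower, against 978 of 12339 in the fit with the time point. Over all genes, fewer also passed in each fit without a library, which leaves 1 pool in an arm. The loss of a call is thus not particular to the 10 genes. Without the 48 h control pool, the log2 folds of the 10 genes ran from -2.02 to -0.51. With treatment alone and the 24 h control pool left out, 7 passed (not Ces1c, Ces2a and Ces3a). Leaving out the 48 h control pool left 5 (Ces1d, Ces1e, Ces1f, Ces1g and Ces2e), and leaving out the 24 h APAP pool left 9 (not Ces1c). Ces1d to Ces1g and Ces2e passed in each of these fits.

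Of the other 9 Ces entries, 3 averaged at least 10 normalized reads, and all 3 were lower in the edgeR test. Ces1b had 558 and 690 reads in the 24 h and 48 h controls against 473 and 570 after APAP (edgeR log2 fold -0.57, adjusted p = 0.019). Ces2g had 143, 157, 95 and 62 reads in the order control 24 h, control 48 h, APAP 24 h and APAP 48 h, a fold of 0.498 and 0.345 (edgeR adjusted p = 1.2e-05). Ces2d-ps had an adjusted p of 5.0e-04 in edgeR, with few reads in the APAP pools. In DESeq2's Wald test none of the 3 passed (adjusted p = 0.45 for Ces1b, 0.052 for Ces2g and 0.15 for Ces2d-ps). In edgeR, Ces1b also did not pass with treatment alone (adjusted p = 0.12), nor in that fit without the 24 h control, 48 h control or 24 h APAP pool, and Ces2d-ps did not pass without the 48 h control pool (adjusted p = 0.49). The remaining 6 were at or near 0. Ces2f had 0 reads in all libraries, Ces1a had 4 reads in the 24 h APAP pool alone, and Ces1h, Ces2b, Ces2h and Ces4a had at most 8 reads in a library.

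Other esterases and lipases of the liver were counted beside the family. Of 20 tested genes, 7 were lower and 1, the lipoprotein lipase Lpl, was higher in edgeR at an adjusted p under 0.05. The list also holds the epoxide hydrolases Ephx1 and Ephx2, which are not esterases or lipases and are both among the 7. Their median log2 fold was -0.36 at 24 h and -0.39 at 48 h. Of the 3 with the highest mean, Pon1, the paraoxonase of high-density lipoprotein, had a fold of 0.496 and 0.515 (edgeR adjusted p = 3.8e-05). Ephx2, the soluble epoxide hydrolase, had a fold of 0.703 and 0.461 (edgeR adjusted p = 8.8e-04). Esd, an esterase that cuts S-formylglutathione, had a fold of 1.43 and 1.30 and did not pass (edgeR adjusted p = 0.081).

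The nuclear receptors and factors known to control genes of foreign compound metabolism were counted in the same way. Of 12 such genes, 0 were at least 2-fold lower or higher at either time point, and edgeR called 1, Cebpa, lower (log2 fold -0.75, adjusted p = 0.0013) at an adjusted p under 0.05, a share near the 7.93% of all genes. Nr1i2, the pregnane X receptor, had a fold of 1.01 at 24 h and 0.999 at 48 h. Nr1i3, the constitutive androstane receptor, had a fold of 1.64 (1.39 to 1.94) at 24 h and 0.976 (0.805 to 1.18) at 48 h, Ppara of 0.794 and 0.768, and Hnf4a of 1.17 and 0.942. The adjusted p of these 4 genes in edgeR lay between 0.20 and 1.0. Levels of mRNA say nothing here of the activity of a receptor.

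**Figure D5:**
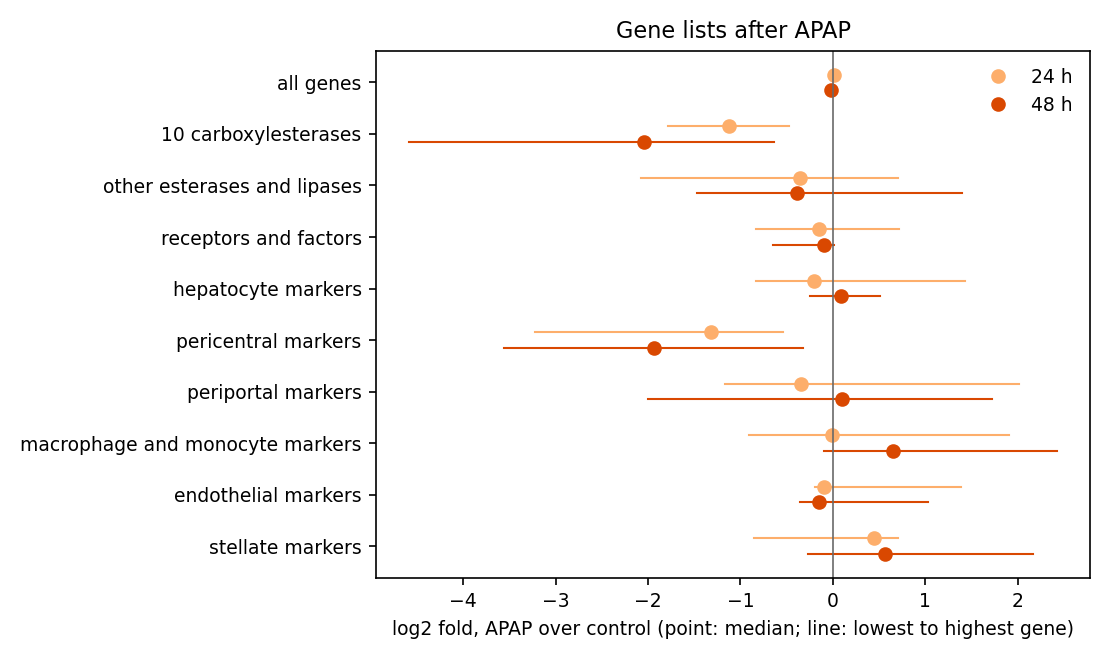
Median log2 fold (points) with the lowest and highest gene (lines) at 24 h (light) and 48 h (dark) for the 10 carboxylesterases and for lists of other genes, and the median alone for all 12113 genes, over genes averaging at least 10 normalized reads. The carboxylesterases (medians -1.12 and -2.04) and the pericentral markers (-1.32 and -1.93) lie to the left, and the hepatocyte markers (-0.20 and 0.09) near 0.

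Of the general hepatocyte markers, 0 of 9 were at least 2-fold lower at either time point. At 24 h, 1 of them, Fgb, was at least 2-fold higher, with a fold of 2.70. Of the pericentral markers with enough reads, 8 of 11 at 24 h and 9 of 11 at 48 h were at least 2-fold lower, beside 5 and 9 of the 10 carboxylesterases. In that list Glul, the glutamine synthetase of the cells next to the central vein, had a fold of 0.107 and 0.0850, and Cyp2e1, which oxidizes APAP, of 0.623 and 0.369. The 12 periportal markers had a median log2 fold of -0.34 and 0.10, and in edgeR 4 were lower and 1 was higher. Differences between the lists were not tested. Relative to the summed hepatocyte markers, the carboxylesterases were at 0.575 of control at 24 h and at 0.389 at 48 h.

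The pancreas and intestine markers, listed for cells that liver tissue should not hold, summed to 88.7 and 89.8 RPM in the 24 h and 48 h controls against 81.4 and 61.8 RPM after APAP. Nearly all of it came from Fabp2 and Cela1, which had reads in all 4 libraries. The markers defining a pancreas, Cpa1 and Pnlip, were at 0 reads in 3 of 4 libraries and at 8 and 6 reads in the 48 h control pool. That pool was also the one with the higher level of Ces2c and Ces2e. Between the controls, 48 h over 24 h, Fabp2, listed for the intestine, stood at 0.957 (0.823 to 1.11). Its reads in the 24 h and 48 h controls, 347 and 352, were many beside those of Vil1, and their source was not tested. Vil1 had 2 reads in the 24 h control pool and 3 in that at 48 h. The part of other tissue in the levels of Ces2c and Ces2e was not tested.

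Last, the 4388 genes averaging at least 100 normalized reads were ranked by the distance of their centred log2 levels over the 4 libraries from the median profile of the 10 genes (0.70, 0.91, -0.60 and -1.12 in control 24 h, control 48 h, APAP 24 h and APAP 48 h). With 4 libraries, this likeness is a description. The nearest was Gulo, the last enzyme of vitamin C synthesis, at a distance of 0.06, with a fold of 0.408 at 24 h and 0.245 at 48 h. Also among the nearest 5 were Cyp2f2, a cytochrome P450 of periportal hepatocytes (0.17, with folds 0.444 and 0.249), Aldh1a7, an aldehyde dehydrogenase (0.24, with folds 0.401 and 0.261), and Slco1a1, an organic anion transporter (0.25, with folds 0.375 and 0.214). Gulo stands in the list of pericentral markers and Cyp2f2 in that of periportal markers.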

How the data were processed

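Hepatic RNA of 4 pools was sequenced by MACE, with 1 library per pool. The authors removed duplicates by unique molecular identifiers, trimmed reads with cutadapt, clipped poly(A), mapped to mm10 and deposited the HTSeq count per gene, without normalization. The aligner and annotation are not given in the sources used here. RPM, log2 ratios, p-values and FDR computed by the authors in the same table were not used.

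Counts were divided by DESeq2 1.42.0 size factors (24 h and 48 h control, 0.880 and 0.933, and 24 h and 48 h APAP, 1.17 and 1.07). Counts under a floor of 3 reads (0.526 to 0.617 RPM) were set to it in folds. Ratios of folds used the conditional exact interval of the odds ratio. Treatment was tested by edgeR 4.0.16 (TMM, quasi-likelihood, filterByExpr, R 4.3.3) over all genes kept. Because each group is 1 pool, the spread between mice is not seen, and intervals cover counting error only. Python 3.11.15, scipy 1.17.1 and blastn 2.17.0 were used, with positions from GENCODE mouse release 21. The procedure was tested on simulated data.

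The 10 genes and all lists were chosen with earlier results of these data known. Named genes were the 10 genes, other Ces entries, the 3 most abundant other esterases and lipases, Nr1i2, Nr1i3, Ppara and Hnf4a, and the 5 genes most like the median profile. Of these 5, 1 is not reported here. Aadac and other listed genes enter as counts. The hepatocyte marker Trf and the neutrophil marker Ly6g are not analysed here. Alternatives were TMM, library totals, hepatocyte markers as the scale, the other control pool, both control pools summed, other floors and call rules, DESeq2's Wald test and leaving out libraries.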

Additional observations from a re-analysis of the deposited data

Results flagged for a closer look

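The folds at 24 h and 48 h differed in 9 of the 10 carboxylesterases, since the interval of the ratio of the 48 h fold to the 24 h fold left out 1. Over all genes the interval lay under 1 in 11.0% and over 1 in 8.85%. It covers counting error alone and is narrower for genes with more reads. Of the 9 hepatocyte markers, it lay under 1 in 2 and over 1 in 6. Of the 11 pericentral markers with enough reads, it lay under 1 in 6 and over 1 in 1. Of the 12 periportal markers, it lay under 1 in 2 and over 1 in 8. The ratio was 0.100 for Ces2c, 0.339 for Ces2a, 0.376 for Ces3b, 0.473 for Ces2e, 0.547 for Ces3a, 0.681 for Ces1e, 0.752 for Ces1g, 0.762 for Ces1f and 0.948 for Ces1c. Each compares 4 libraries, and mice were not compared. For Ces2e the APAP pools were close, at 350 and 323 normalized reads, and the control pools stood at 686 and 1340. With both control pools summed as the control of both time points, 7 of the 10 ratios differed from 1, 5 lower and 2 higher. The ratio of Ces1c then turned to 1.09, those of Ces1e, Ces1g and Ces2e (0.803, 0.910 and 0.924) had intervals that held 1, and that of Ces2c was 0.262.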

How the results depend on the processing

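TMM left the calls and directions of the 10 genes as they were. The summed fold of the 10 genes at 24 h (0.557) was 0.634 with library totals, 0.575 with hepatocyte markers as the scale, 0.488 against the other control pool and 0.520 against both control pools summed. At 48 h (0.406) it was 0.488, 0.389, 0.463 and 0.432. The median log2 fold at 24 h (-1.12) was -1.66 against the other control pool and -1.59 against both. At 48 h (-2.04) it was -1.78 with library totals, -1.69 against the other control pool and -1.83 against both. The 5 genes at least 2-fold lower at 24 h became 7 against the other control pool, 6 against both and 4, without Ces2c, where the whole interval had to pass. Against the other control pool, 1 gene, Ces2c, was at least 5-fold lower at 24 h. The ratio of folds of Ces1c turned from 0.948 to 1.09 with both control pools summed and to 1.0 with library totals, alternatives chosen for this ratio after seeing the data. No fold of a gene at a single time point changed direction under any alternative run.

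Of the 10 genes lower over both time points in edgeR, 6 passed in DESeq2's Wald test (not Ces1c, Ces2a, Ces2c and Ces3b), and 5 to 10 passed when each library was left out. Over all genes, edgeR called 978 lower and 560 higher. DESeq2's Wald test called 298 and 109, treatment alone 537 and 268, the fit without the 24 h control pool 358 and 135, and that without the 48 h control pool 207 and 93. The edgeR fit sets each APAP pool against its control by the time point term, and without that term 8 of the 10 genes passed. Depth limits Ces2c most, with 10 reads in the 48 h APAP pool.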
